A study of Homo sapiens with 3 samples.

Results

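The HOX genes of clusters A to D were followed in PANC-1, a cell line established from a human ductal adenocarcinoma of the pancreas. Expression was read in 3 stable lines, with 1 Affymetrix array for each. One line expressed a mutant JMJD3, one expressed wild-type JMJD3, and the control line carried the blank MSCV vector, a retroviral vector. None of them received any further treatment. JMJD3, the product of KDM6B, removes the repressive trimethyl mark which Polycomb complexes place on histone H3. The labels name neither the mutation nor whether a line was a clone or a pool. Members were all genes whose symbol in the platform annotation is HOXA, HOXB, HOXC or HOXD followed by a number, on probe sets with 1 gene symbol. That gave 28 genes on 44 of 54613 probe sets, with 10 genes of HOXB, 9 of HOXC, 8 of HOXD and 1 of HOXA (HOXA2), so HOXA other than HOXA2 and HOXD3 were not analysed here. Another 3 probe sets carry HOXD3 and HOXD4 among several symbols, read log2 3.15 to 3.75 and were left out.

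HOX genes encode homeodomain transcription factors that give cells along the head-to-tail axis their regional identity. They lie in 4 clusters, on chromosomes 7 (HOXA), 17 (HOXB), 12 (HOXC) and 2 (HOXD), and genes with the same number in different clusters are paralogues. Low numbers act towards the head and high numbers towards the tail. In cells that do not use them the clusters are covered by Polycomb marks, and HOX genes are among the known loci where H3 demethylases and Polycomb act against each other.

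Of the 28 HOX genes, 11 had a promoter window in the RefSeq table (GRCh38.p14), and HOXC4 and HOXC5 share a start and so a window. The 11 are HOXA2, HOXB1, HOXC4, HOXC5, HOXD1, HOXD4, HOXD8, HOXD10, HOXD11, HOXD12 and HOXD13. The window counts below therefore leave out every HOXB gene but HOXB1 and describe mostly HOXD. The 250 bases before the start of HOXD8 (chr2:176129455-176129704, plus strand), HOXD4 (chr2:176151300-176151549, plus strand), the antisense transcript HOXD-AS2 (chr2:176137099-176137348, minus strand) and HOXC4 with HOXC5 (chr12:54016638-54016887, plus strand) are shown because these close neighbours differed in opposite directions between the JMJD3 lines. The choice was made after their values were seen. Capitals mark each CG.
HOXD8: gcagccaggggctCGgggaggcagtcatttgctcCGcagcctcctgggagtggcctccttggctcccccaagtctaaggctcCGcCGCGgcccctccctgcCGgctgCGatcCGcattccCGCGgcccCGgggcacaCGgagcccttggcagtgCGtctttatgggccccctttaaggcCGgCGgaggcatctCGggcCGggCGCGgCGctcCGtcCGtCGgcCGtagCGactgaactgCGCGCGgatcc
HOXD4: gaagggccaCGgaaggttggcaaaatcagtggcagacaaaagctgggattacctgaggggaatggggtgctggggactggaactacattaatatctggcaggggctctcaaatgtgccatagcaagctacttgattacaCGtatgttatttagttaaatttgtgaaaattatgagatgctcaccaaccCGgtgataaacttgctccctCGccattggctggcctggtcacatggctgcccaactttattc
HOXD-AS2: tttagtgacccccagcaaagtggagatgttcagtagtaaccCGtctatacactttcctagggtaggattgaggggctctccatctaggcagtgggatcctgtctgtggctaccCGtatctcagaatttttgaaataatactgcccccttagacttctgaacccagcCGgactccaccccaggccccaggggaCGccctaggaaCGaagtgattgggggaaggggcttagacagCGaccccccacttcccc
HOXC4 and HOXC5: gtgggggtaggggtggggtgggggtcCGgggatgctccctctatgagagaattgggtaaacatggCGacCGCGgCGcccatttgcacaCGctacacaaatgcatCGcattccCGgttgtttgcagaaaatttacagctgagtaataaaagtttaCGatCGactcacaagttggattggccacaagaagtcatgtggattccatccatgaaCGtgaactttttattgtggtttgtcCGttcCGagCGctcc
The HOXD8 window held 28 CG dinucleotides, against 4 in that of HOXD4, 6 in that of HOXD-AS2 and 14 in that of HOXC4 and HOXC5. The ratio of observed to expected CG was 0.86 for HOXD8, 0.29 for HOXD4, 0.32 for HOXD-AS2 and 0.89 for HOXC4. Over the 10 distinct HOX windows the median was 18.5 CG and a ratio of 0.88, beside 11 and 0.56 over all 34943 windows of this length. A CCAAT box (CCAAT on either strand) began 38 bases before the start of HOXD4 and 40 before that of HOXD-AS2. It was found in 8 of the 10 HOX windows and in 32.0% of all. The E-box CACGTG was in 4 of the 10 and 6.32% of all, and the HOX-PBX letters TGATNNAT were in 3 of the 10 and 6.49% of all. The GC box GGGCGG was in 4 of the 10 and 42.5% of all, the letters TATAAA in 1 and 10.8%, and the nuclear receptor letters AGGTCA in 0 and 12.1%. The motifs were read on both strands and may overlap, and a match is only a match of letters. HOXD1, which read log2 5.08 in every array, held 31 CG.

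The values are deposited log2 signals, and a floor was set at their pooled median of log2 5.48, since no detection calls were used. Where a gene had several probe sets, the one with the highest mean signal stood for it. The medians of the arrays were 5.49 with mutant JMJD3, 5.48 with wild-type JMJD3 and 5.50 in control. As each line has 1 array, nothing below could be checked against replicates or tested, and the number of arrays limits the precision. A signal from a whole culture cannot tell fewer expressing cells from less RNA per cell. Of the KDM6B probe sets, 1556067_a_at read 6.45 with mutant JMJD3, 6.73 with wild-type JMJD3 and 5.53 in control, 1556066_at read 6.51, 6.75 and 6.02 in the same order, and the other 3 differed by no more than 0.11 between arrays. Ductal markers were over the floor in 8 of 11 genes, and KRT18, KRT8 and MUC1 read 10.33 or more in all arrays, while CDH1 (4.62), CFTR (4.45) and ONECUT1 (3.52) read the same under the floor in all 3. None of 5 leukocyte markers passed the floor. Of 9 fibroblast and stellate cell markers 4 did (COL1A1, PDGFRB, ACTA2 and DCN), as did TEK and PECAM1 of 5 endothelial ones.

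The same 20 HOX genes were over the floor in every array and the same 8 under it. No HOX gene therefore crossed this floor with either JMJD3, although some crossed a higher one, as given below. Over all 19775 genes, 63.3% were over the pooled median floor with mutant JMJD3, 63.6% with wild-type JMJD3 and 62.9% in control. In HOXB all but HOXB1, a hindbrain gene, were over it. In HOXC the exceptions were HOXC8 and HOXC12. HOXC8 came close to the floor, at 5.20 with mutant JMJD3, 5.36 with wild-type JMJD3 and 5.20 in control, as did HOXB1 at 5.37, 5.44 and 5.38. HOXC12 read 4.26 with mutant JMJD3, 4.26 with wild-type JMJD3 and 4.29 in control, although HOXC11 and HOXC13 on either side of it were over the floor. In HOXD the genes over the floor were HOXD4, HOXD8 and HOXD9, and HOXD13, a gene of the digits, just above it at 5.63 in all arrays. HOXD1, HOXD10, HOXD11 and HOXD12 lay between 3.05 and 5.08, and HOXA2, which patterns the hindbrain and second pharyngeal arch, read 3.64 in every array. With the floor at the 60th percentile, log2 6.17, HOXB6 was under it in control alone and HOXB8 over it with mutant JMJD3 alone. HOXD4 was under that floor with mutant JMJD3 alone. Of the HOX genes 18 were then over it with mutant JMJD3, 18 with wild-type JMJD3 and 17 in control. With the median over probe sets the counts were 17, 17 and 16. The counts were equal between arrays with either rescaling, with the 40th percentile floor and without shared probe sets.

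**Figure D1:**
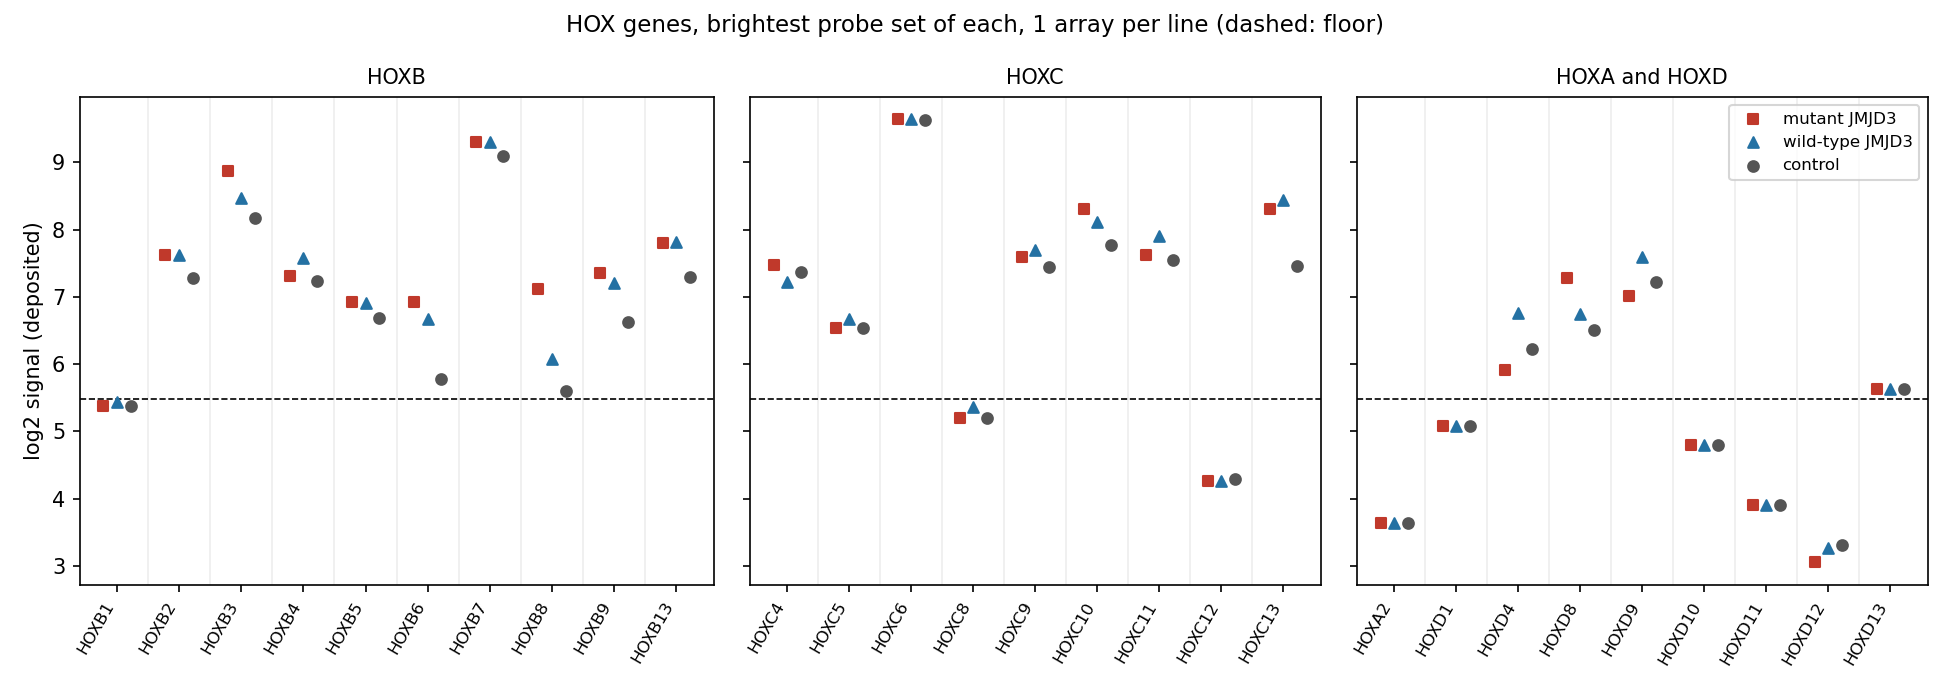
Deposited log2 signal (y axis) of the brightest probe set of each of the 28 HOX genes (x axis, by cluster and number), with 1 point per array for mutant JMJD3 (squares), wild-type JMJD3 (triangles) and control (circles) and the floor at log2 5.48 as a dashed line. In 15 of the 20 genes over the floor the control point alone is the lowest, and the 8 genes under the floor are under it in all 3 arrays. The lowest array was not counted over all genes.

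Many members under the floor were identical between arrays. Of the 18 HOX probe sets under the floor in all arrays, 8 held the same value in all 3, and 1 of the 26 others did (236681_at of HOXD13). Among the HOX probe sets 20.5% were identical in all arrays, and 21.0% among all probe sets. The split at the floor was not counted over all probe sets. How the arrays were made comparable is unknown here, and equal values need not mean equal transcript.

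Control was the lowest array for most of the HOX genes over the floor. Of the 20 genes over the floor, control alone was lowest in 15, mutant JMJD3 alone in 2 (HOXD4 and HOXD9) and wild-type JMJD3 alone in 1 (HOXC4). The highest signal was shared out evenly, with mutant JMJD3 alone in 8 genes, wild-type JMJD3 alone in 8 and both equal in 3. HOXC5 was equally low with mutant JMJD3 and in control, and HOXD13 was equal throughout. Both JMJD3 lines are set against the same control array, so these comparisons are not independent. How often control alone was lowest was not counted over all genes, so the 15 cannot be called particular to HOX genes.

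Against control, 18 of the 20 measured HOX genes were higher with wild-type JMJD3, beside 54.4% of 12697 measured genes, and 16 were higher with mutant JMJD3, beside 45.9% of 12707. HOXC4 was the 1 gene lower with wild-type JMJD3 (34.3% of all genes), and HOXD4 and HOXD9 were the 2 lower with mutant JMJD3 (41.2%). With the arrays scaled to one median the counts were 18 with mutant JMJD3, beside 58.8% of all genes, and 19 with wild-type JMJD3, beside 66.3%. Among genes whose mean signal lay within the range of these 20 (log2 5.63 to 9.64), 45.9% were higher and 38.9% lower with mutant JMJD3, and 54.1% higher and 32.6% lower with wild-type JMJD3. The median HOX difference from control was 0.225 on the log2 scale for mutant JMJD3 and 0.34 for wild-type JMJD3, beside 0.00 and 0.05 over all genes. Taken probe set by probe set, 24 of 26 measured HOX probe sets were higher and 1 lower with wild-type JMJD3, and 21 of 25 higher and 2 lower with mutant JMJD3. Some genes have several of these probe sets, so the counts partly repeat those by gene. Higher and lower were not counted over all probe sets.

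Markers of cell type moved too, the ductal ones in no single direction. Of 8 measured ductal markers 4 were higher and 4 lower than control with mutant JMJD3 (median 0.025), and 5 higher and 3 lower with wild-type JMJD3 (median 0.14). KRT19, a ductal keratin, read 7.73 with mutant JMJD3, 8.0 with wild-type JMJD3 and 5.55 in control, and SOX9, a ductal progenitor factor, 8.40, 7.59 and 5.81, the members furthest above control. The control value of KRT19 lay just over the floor. With the floor at the 60th percentile KRT19 was 1.56 over control with mutant JMJD3 and 1.83 with wild-type JMJD3. With the median over its probe sets these differences were 0.30 and 0.47. MUC1 read 10.33, 10.54 and 10.75, lower in both JMJD3 lines. KRT8 read 10.67, 11.97 and 11.76, KRT7 9.16, 10.8 and 9.66, and ONECUT2 8.98, 7.86 and 8.51, each lower than control in one of the lines. Without shared probe sets KRT7 was -0.31 from control with mutant JMJD3 and 0.21 with wild-type JMJD3. The mean log2 signal over 11 ductal markers was 7.98, 8.06 and 7.65 in the same order, and over 9 fibroblast and stellate cell markers 5.50, 5.68 and 5.44. It was 4.84, 4.90 and 4.80 over 5 endothelial markers and 4.29, 4.27 and 4.32 over 5 leukocyte markers. All 4 measured fibroblast and stellate cell markers were higher than control with wild-type JMJD3 (median 0.45), beside 54.4% of all measured genes. With mutant JMJD3 2 of them were higher, 1 equal and 1 lower (median 0.11), beside 45.9% of all genes higher. The part of these shifts in the HOX values was not tested.

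Most of these differences were small. With wild-type JMJD3, 0 HOX genes differed from control by 2-fold or more in either direction (0.953% of all measured genes were higher by that much, 1.31% lower). Only HOXC13 and HOXB6 were 1.5-fold higher or more, 2 of 20 beside 7.15% of all genes, and 0 were 1.5-fold lower, beside 9.08%. With mutant JMJD3, 2 HOX genes, HOXB8 and HOXB6, were 2-fold higher or more (2.98% of all genes) and 0 were 2-fold lower (0.535%). There 6 of 20 were at least 1.5-fold higher, beside 9.51% of all genes, namely HOXB8, HOXB6, HOXC13, HOXD8, HOXB9 and HOXB3, and 0 were 1.5-fold lower, beside 3.38%.

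**Figure D2:**
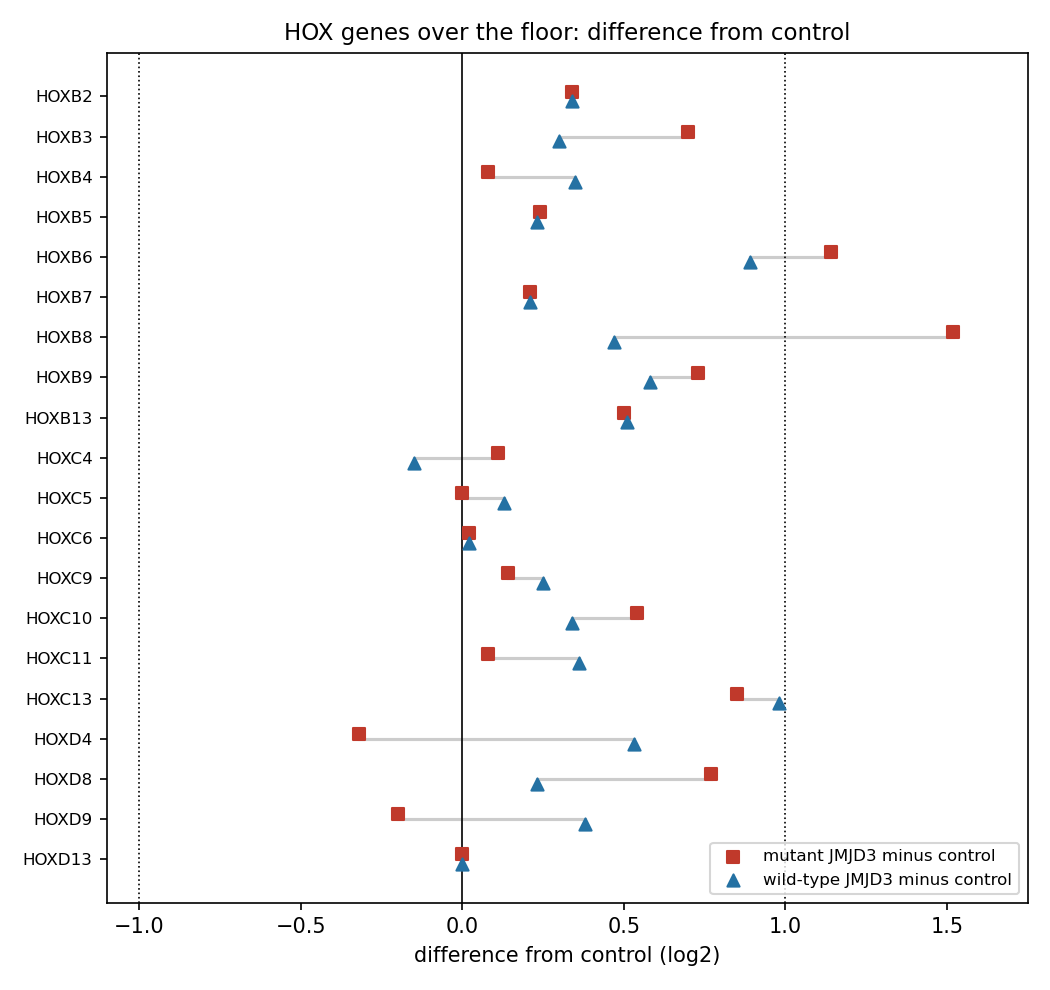
Difference from control in log2 signal (x axis) for the 20 HOX genes over the floor (y axis), with squares for mutant JMJD3 minus control and triangles for wild-type JMJD3 minus control, joined by a line per gene and with 2-fold marked by dotted lines. Every HOXB gene has both points right of 0, HOXB8 and HOXB6 pass 2-fold with mutant JMJD3, and HOXC4, HOXD4 and HOXD9 have their points on opposite sides of 0.

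In the HOXB cluster all 9 measured genes were higher than control with both JMJD3 forms, with a median difference of 0.50 for mutant JMJD3 and 0.35 for wild-type JMJD3. HOXB8, whose mouse counterpart is known as a leukaemia gene of myeloid cells, read 7.12 with mutant JMJD3, 6.07 with wild-type JMJD3 and 5.60 in control. That is 2.87-fold over control with the mutant and 1.39-fold with wild-type JMJD3. Only 97 of 12707 measured genes, HOXB8 among them, were as far above control with mutant JMJD3. Control lay just over the floor, and the unshared HOXB8 probe set 221278_at read 3.90 in all arrays, so the whole difference rests on 229667_s_at, whose probes are shared with other transcripts. With the floor at the 60th percentile or an offset in its place, the log2 difference for mutant JMJD3 was 0.95 and 0.98, under 2-fold, and with the median over both probe sets it was 0.03.

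HOXB6, a trunk gene next to HOXB7, read 6.92 with mutant JMJD3, 6.67 with wild-type JMJD3 and 5.78 in control. It was 2.20-fold and 1.85-fold over control with mutant and wild-type JMJD3. The line with the control vector was the low one, and the JMJD3 lines were within 1.19-fold of each other. Here too the signal comes from a shared probe set, 205366_s_at, while the unshared 205365_at read 3.52, 3.52 and 3.36 in mutant JMJD3, wild-type JMJD3 and control, and a floor at the 60th percentile brought the mutant difference to 0.75. Without shared probe sets neither HOXB6 nor HOXB8 was over the floor in any array.

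HOXB9, a thoracic and lumbar gene, read 7.36 with mutant JMJD3, 7.21 with wild-type JMJD3 and 6.63 in control, which puts it 1.66-fold and 1.49-fold over control on an unshared probe set. Its other probe set, 216417_x_at, lay near the floor at 5.38, 5.62 and 5.30. HOXB3, a hindbrain gene, read 8.87 with mutant JMJD3, 8.47 with wild-type JMJD3 and 8.17 in control. Its difference from control was 1.62-fold with the mutant and 1.23-fold with wild-type JMJD3, while 208414_s_at lay near the floor at 5.57, 5.57 and 5.47. With the median over probe sets the mutant difference from control was 0.40 on the log2 scale for each of HOXB9 and HOXB3, and with an offset 0.54 for HOXB9, all under 1.5-fold. At the brightest probe sets of HOXB8, HOXB6, HOXB9 and HOXB3 the mutant array was highest and control lowest.

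At their brightest probe sets the remaining HOXB genes differed by no more than 1.21-fold between the JMJD3 lines. HOXB7, a gene studied in several carcinomas, read 9.30 with mutant JMJD3, 9.30 with wild-type JMJD3 and 9.09 in control, and its other probe sets lay 0.36 and 0.15 above control with the mutant and 0.46 and 0.17 with wild-type JMJD3. HOXB13, the most posterior member of the cluster and a prostate lineage factor, read 7.80, 7.81 and 7.30 in mutant JMJD3, wild-type JMJD3 and control, or 1.41-fold and 1.42-fold over control. Both JMJD3 lines were above control in its second probe set as well (6.40, 6.73 and 6.12). HOXB2, a hindbrain gene, read 7.62 in both JMJD3 arrays and 7.28 in control. HOXB5, active in the gut and its nerve cells, read 6.92, 6.91 and 6.68. HOXB4, used to expand blood stem cells, was the HOXB gene with the widest margin of wild-type JMJD3 over the mutant, at 7.31 with mutant JMJD3, 7.58 with wild-type JMJD3 and 7.23 in control.

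In the HOXC cluster 6 of 7 measured genes were higher than control with either JMJD3 form, with a median difference of 0.11 for mutant JMJD3 and 0.25 for wild-type JMJD3. HOXC13, which drives keratin genes of hair and nail, read 8.31 with mutant JMJD3, 8.44 with wild-type JMJD3 and 7.46 in control. It was 1.80-fold over control with the mutant and 1.97-fold with wild-type JMJD3, and 131 of 12697 measured genes were as far above control with wild-type JMJD3. The wild-type difference of 0.98 came to 1.0 with the arrays scaled to one median. HOXC13 has 1 probe set on the array and its probes are shared, so no second reading bears on it.

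HOXC10, a lumbar and hindlimb gene, read 8.31 with mutant JMJD3, 8.11 with wild-type JMJD3 and 7.77 in control, 1.45-fold and 1.27-fold over control. HOXC11 was higher with wild-type JMJD3, at 7.63 with mutant JMJD3, 7.91 with wild-type JMJD3 and 7.55 in control. HOXC9, which sets thoracic motor neuron identity in mice, read 7.59, 7.70 and 7.45 in the same order. In these 3 genes both JMJD3 lines were over control by less than 1.5-fold. HOXC6, a thoracic gene read by a shared probe set, hardly differed between arrays, at 9.65, 9.65 and 9.63 in mutant JMJD3, wild-type JMJD3 and control, and its 0.02 for mutant JMJD3 turned negative with quantile normalization. HOXC4 and HOXC5, which share the start printed above, went opposite ways by small amounts. HOXC4 read 7.48 with mutant JMJD3, 7.22 with wild-type JMJD3 and 7.37 in control, and HOXC5 read 6.54, 6.67 and 6.54.

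In the HOXD cluster 2 of 4 measured genes lay below control with mutant JMJD3 and above it with wild-type JMJD3. As deposited no HOXB or HOXC gene did so, while with quantile normalization HOXC5 was at -0.05 and 0.20 and HOXC6 had the same signs. HOXD4, which acts in the hindbrain and neck vertebrae, read 5.91 with mutant JMJD3, 6.76 with wild-type JMJD3 and 6.23 in control. With the mutant it was 1.25-fold under control and 1.80-fold under wild-type JMJD3. Wild-type JMJD3 was 1.44-fold over control. With the floor at the 60th percentile the mutant difference from control was -0.06 on the log2 scale. The difference between the JMJD3 lines was under 1.5-fold with an offset (-0.55) and with the median over probe sets (-0.27), where HOXD4 was not measured for mutant JMJD3 against control. Its second probe set, 1552337_s_at, had the same order under the floor at 4.19, 4.74 and 4.31. HOXD9, a trunk and forelimb gene, read 7.02 with mutant JMJD3, 7.60 with wild-type JMJD3 and 7.22 in control, with 5.18, 5.41 and 5.37 on its second probe set, the mutant lowest in both. HOXD8, which lies between them on the chromosome, did not follow. It read 7.28 with mutant JMJD3, 6.74 with wild-type JMJD3 and 6.51 in control, so that the mutant was 1.71-fold over control and 1.45-fold over wild-type JMJD3, with 0.56 over control on the log2 scale, under 1.5-fold, when an offset was used. Neighbouring HOXD genes therefore differed in opposite directions within one pair of lines.

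Set directly against wild-type JMJD3, the mutant line had 8 HOX genes higher, 8 lower and 4 equal, with a median of 0.00 over the 20 and over all genes. Over 12829 measured genes 40.5% were higher, 49.7% lower and 9.77% equal. HOXB8 was the 1 HOX gene at least 2-fold higher (2.07-fold, beside 6.2% of all genes) and 0 were 2-fold lower (2.61%), and with quantile normalization HOXB8 was under 2-fold at 0.95. It was also the 1 gene at least 1.5-fold higher (15.9% of all genes), and HOXD4 the 1 gene at least 1.5-fold lower (11.3%). Among genes in the HOX range of mean signal 39.9% were higher and 48.6% lower with the mutant. Of 26 measured HOX probe sets 6 held the identical value in the JMJD3 arrays (23.1%, beside 11.2% of all measured probe sets), in HOXB2, HOXB3, HOXB5, HOXB7, HOXC6 and HOXD13. Between wild-type JMJD3 and control 1 of 26 was identical (3.85%, beside 12.8%), and between mutant JMJD3 and control 2 of 25 were (8.0%, beside 14.1%).

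**Figure D3:**
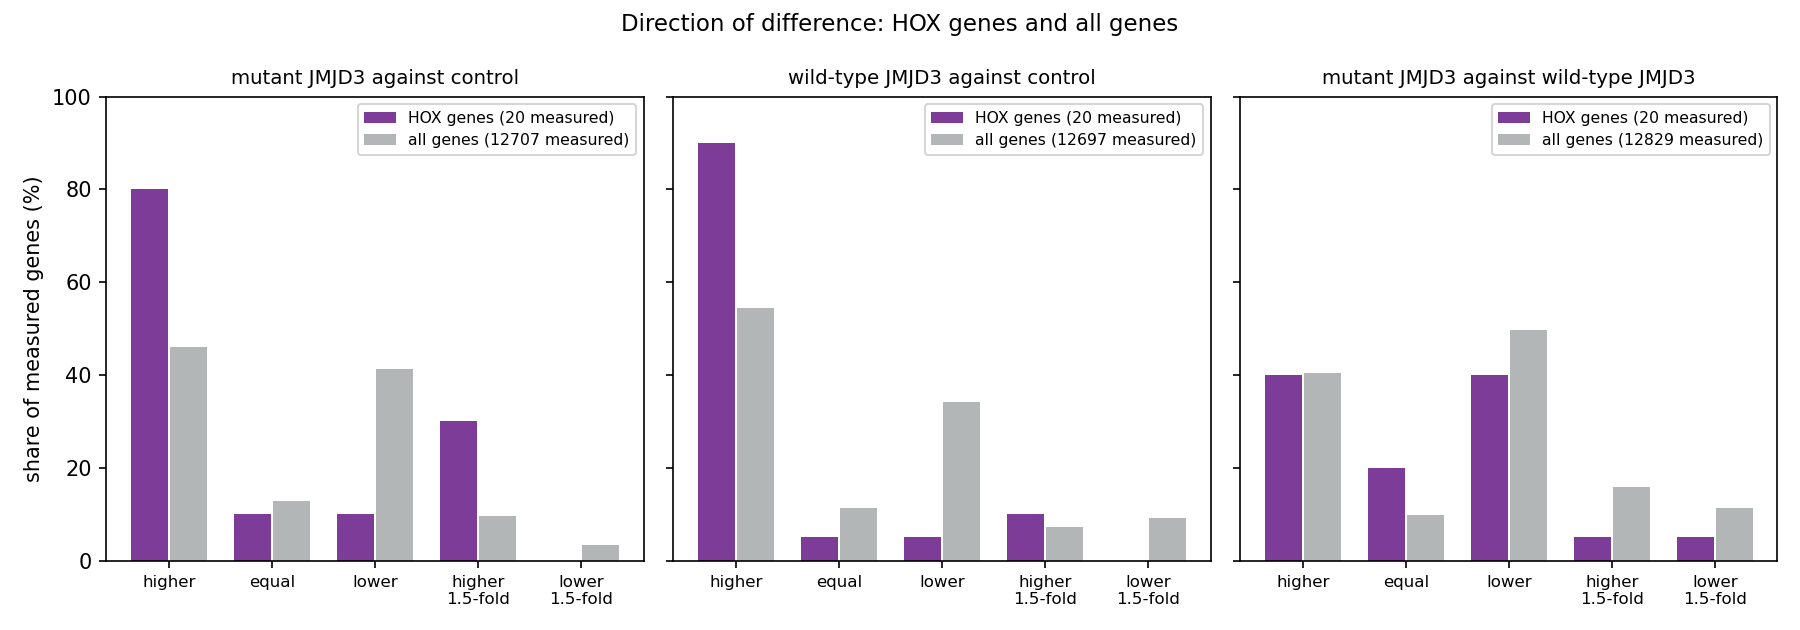
Share of measured genes in percent (y axis) that were higher, equal, lower, or at least 1.5-fold higher or lower (x axis) for the 20 measured HOX genes (purple) and all measured genes (grey), with a panel per comparison. HOX genes were more often higher than all genes in both comparisons with control (18 of 20 with wild-type JMJD3 and 16 of 20 with mutant JMJD3), and not in the comparison of mutant with wild-type JMJD3 (8 of 20).

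Grouped by paralogue number, each class had a median above control with both JMJD3 forms. The median difference from control for paralogues 9 to 13, of which 8 of 12 were measured, was 0.32 with mutant JMJD3 and 0.37 with wild-type JMJD3. For paralogues 4 to 8, with 10 of 11 measured, it was 0.16 and 0.23. The 2 measured genes among paralogues 1 to 3, HOXB2 and HOXB3, had 0.52 and 0.32. Within paralogue group 4 the 3 members went 3 ways, with HOXB4 higher with wild-type JMJD3 than with mutant JMJD3 and control, HOXC4 lowest with wild-type JMJD3, and HOXD4 lowest with mutant JMJD3.

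Second probe sets spoke to few of the genes. In 5 genes another probe set was measured for wild-type JMJD3 against control (HOXB3, HOXB5, HOXB7, HOXB9 and HOXB13), and all 6 of these probe sets went the same way as the brightest. All 5 that were measured for mutant JMJD3 against control did so too, in 4 genes. For mutant against wild-type JMJD3 1 of 6 had the same sign, that of HOXB13, and in HOXB9 the sign was opposite.

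The HOX clusters also hold non-coding transcripts, of which 11 of 19 listed were on named probe sets and 6 passed the floor in at least 1 array. HOTAIR, which is read opposite to the HOXC genes between HOXC11 and HOXC12 and has been linked to Polycomb in other cells, read 7.16 with mutant JMJD3, 6.13 with wild-type JMJD3 and 5.90 in control. It was 2.39-fold over control with the mutant and 1.17-fold with wild-type JMJD3, in the same order as HOXB8. With the floor at the 60th percentile its mutant difference was 0.99, and with an offset 0.85. HOXC11 beside it did not share this order and HOXC12 was under the floor.

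HOXD-AS2, an antisense transcript between HOXD8 and HOXD4, read 7.98 with mutant JMJD3, 9.5 with wild-type JMJD3 and 8.60 in control. It was 1.54-fold under control with the mutant and 1.87-fold over control with wild-type JMJD3, so the mutant lay 2.87-fold under wild-type JMJD3, and 56 of 12829 genes were that far or further below. This is the order of HOXD4 and HOXD9, and not that of HOXD8. HAGLROS, which lies beside HOXD1, read 7.76, 7.34 and 6.80 in mutant JMJD3, wild-type JMJD3 and control, and HAGLR 5.71, 5.68 and 5.71. HOXA11-AS, the one HOXA cluster transcript over the floor in all arrays, read 6.51 with mutant JMJD3, 6.18 with wild-type JMJD3 and 5.84 in control, and 6.21, 5.60 and 5.54 on its second probe set, the mutant being highest in both. With the floor at the 60th percentile its wild-type difference from control was 0.01. HOXB-AS3 passed the floor only with wild-type JMJD3 (5.0, 5.55 and 5.04).

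**Figure D4:**
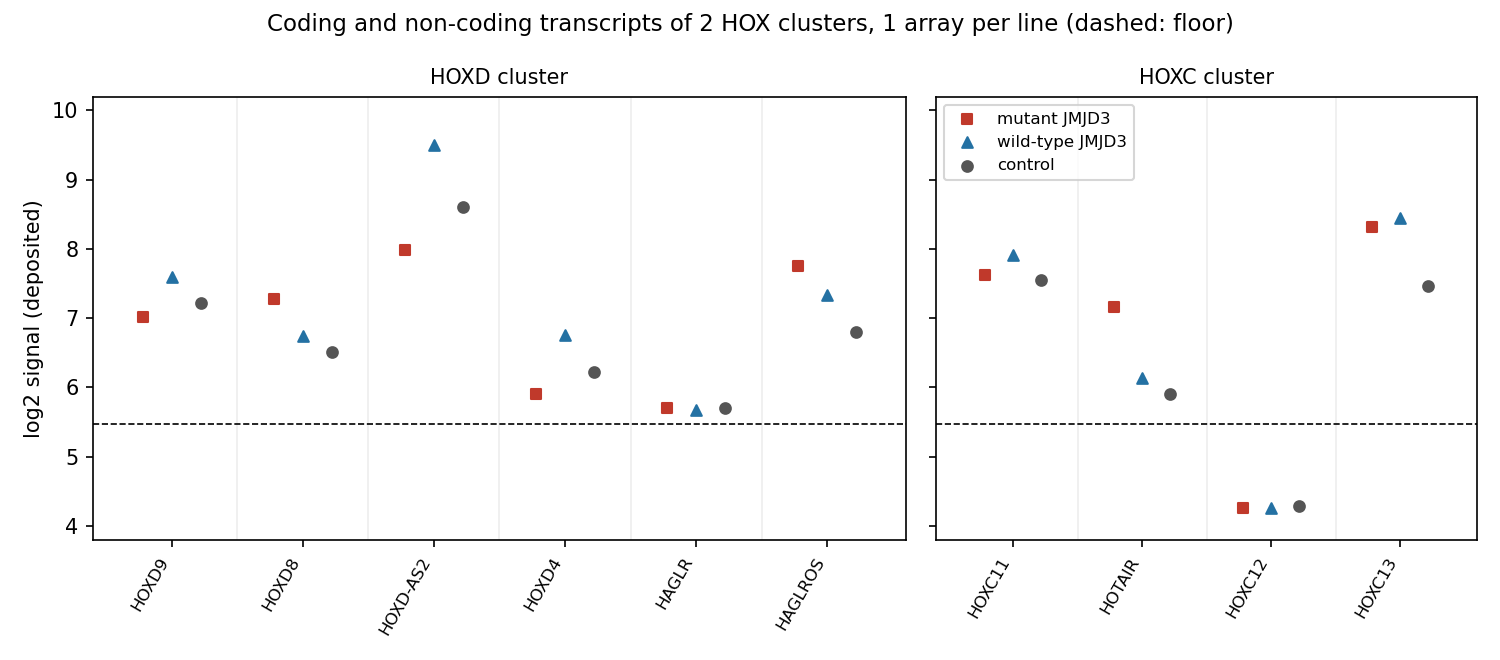
Deposited log2 signal (y axis) of coding and non-coding transcripts (x axis) of the HOXD and HOXC clusters, with 1 point per array for mutant JMJD3 (squares), wild-type JMJD3 (triangles) and control (circles) and the floor as a dashed line. HOXD-AS2, HOXD4 and HOXD9 are highest with wild-type JMJD3 and lowest with mutant JMJD3, while HOXD8, HAGLROS and HOTAIR are highest with mutant JMJD3.

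HOX proteins bind DNA with TALE cofactors of the PBX, MEIS and PKNOX families, and 7 of 8 on the array were over the floor. None differed by 2-fold between any pair of arrays. Against control 3 were higher and 1 lower with mutant JMJD3, beside 45.9% and 41.2% of all genes. With wild-type JMJD3 1 was higher and 4 lower, beside 54.4% and 34.3%. The median difference from control was 0.00 with mutant JMJD3 and -0.03 with wild-type JMJD3. MEIS2 read 9.55 with mutant JMJD3, 9.64 with wild-type JMJD3 and 10.22 in control, lower in both JMJD3 lines and so opposite to most HOX genes. PBX3 read 8.97, 8.26 and 8.82, lowest with wild-type JMJD3. PKNOX1 read 7.30, 7.06 and 7.09, and PBX2 8.08, 8.30 and 8.08. MEIS2 rests on a shared probe set and had no value without shared ones. With the median over its probe sets PBX2 was -0.31 from control with mutant JMJD3 and 0.40 with wild-type JMJD3. PKNOX1 was then -0.15 for mutant against wild-type JMJD3, against 0.24 at the brightest.

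Genes that write or read the marks on HOX clusters, in lists chosen by role, had median differences from control between -0.05 and 0.05. All 14 PRC2 subunits and demethylases of its mark were measured, and 0 of them differed from control by 2-fold. With mutant JMJD3 6 were higher and 6 lower than control (median 0.00), beside 45.9% and 41.2% of all genes. With wild-type JMJD3 5 were higher and 7 lower (median -0.05), beside 54.4% and 34.3%. Between the JMJD3 lines 9 of the 14 were higher and 3 lower with the mutant, with a median of 0.225. Over all genes 40.5% were higher and 49.7% lower there, with a median of 0.00. SUZ12, a core PRC2 subunit, read 11.41 with mutant JMJD3, 10.53 with wild-type JMJD3 and 11.25 in control. KDM6A, the demethylase related to KDM6B, read 7.34, 6.75 and 7.57, AEBP2 10.96, 9.96 and 10.51, and PHF19 9.48, 10.16 and 9.91. The first 3 of these were lowest with wild-type JMJD3 at their brightest probe sets. With the median over its probe sets SUZ12 was -0.28 from control in both JMJD3 lines. At the brightest it was 0.16 from control with mutant JMJD3 and -0.72 with wild-type JMJD3. With that median the JMJD3 lines could not be compared for SUZ12, as neither was over the floor. AEBP2 was then -0.28 from control with wild-type JMJD3, against -0.55 at the brightest. KDM6A rests on a shared probe set and was not measured with the median over probe sets or without shared ones.

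All 15 PRC1 subunits on the array were measured, and 0 of them differed from control by 2-fold. With mutant JMJD3 9 were higher and 5 lower than control (median 0.05), beside 45.9% and 41.2% of all genes. With wild-type JMJD3 6 were higher and 8 lower (median -0.01), beside 54.4% and 34.3%. PHC3 read 10.31 with mutant JMJD3, 9.32 with wild-type JMJD3 and 10.09 in control, RYBP 9.34, 8.65 and 8.89, PCGF5 9.91, 9.75 and 10.42, and PCGF2 8.80, 8.39 and 7.98. Among these PCGF2 alone was above control in both JMJD3 lines. With the median over probe sets PCGF5 turned direction, at 0.71 over control with wild-type JMJD3 and -1.29 for mutant against wild-type JMJD3, and PHC3 was -0.22 from control with mutant JMJD3. The MLL complexes, which activate HOX genes, and their partners had 17 of 17 measured, 8 higher and 8 lower than control with mutant JMJD3 (median 0.00) and 10 higher and 6 lower with wild-type JMJD3 (median 0.05). KMT2A, the MLL gene itself, read 9.97 with mutant JMJD3, 9.07 with wild-type JMJD3 and 9.79 in control, and its tether PSIP1 10.90, 9.35 and 10.36. PSIP1 was 2.01-fold lower with wild-type JMJD3 than in control, but its log2 difference was -0.99 with either rescaling, -0.96 with the offset and -0.68 with the median over its probe sets. MEN1 was highest with wild-type JMJD3 (8.45, 9.12 and 8.33), and WDR5 read 9.02, 9.98 and 9.83, but its differences were 0.00 without shared probe sets.

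Retinoic acid is the classical inducer of HOX genes, and its pathway list had 15 genes on the array. With mutant JMJD3 6 of 12 measured genes were higher than control and 6 lower (median 0.035), beside 45.9% and 41.2% of all genes. With wild-type JMJD3 8 of 11 were higher and 1 lower (median 0.15), beside 54.4% and 34.3%. ALDH1A3, which makes retinoic acid, read 8.33 with mutant JMJD3, 7.46 with wild-type JMJD3 and 7.11 in control. It was 2.33-fold over control with the mutant, but 0.61 on the log2 scale with the median over its probe sets, where wild-type JMJD3 was at -0.16 from control. CYP26B1, which degrades retinoic acid, read 7.91, 7.74 and 7.06, above control in both JMJD3 lines by 1.80-fold and 1.60-fold. With the median over its probe sets these were 0.40 and 0.34 on the log2 scale, under 1.5-fold. RDH10 read 9.62, 8.60 and 9.11, and DHRS3 7.78, 8.56 and 8.10. CDX1, GDF11 and TBXT were the 3 measured of 5 other inducers and axial regulators. At their brightest probe sets they differed by no more than 0.13 between arrays. Their median difference from control was 0.00 for both JMJD3 forms, and CDX2 read 5.22 in all arrays. With the median over its probe sets GDF11 was 0.28 above control with wild-type JMJD3 and -0.06 from it with mutant JMJD3. It was then -0.34 for mutant against wild-type JMJD3.

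Slightly more of the genes lying just outside the clusters were lower than control than higher. Of 15 on the array 13 were measured. With mutant JMJD3 5 of them were higher and 6 lower than control, beside 45.9% and 41.2% of all genes. With wild-type JMJD3 4 were higher and 6 lower, beside 54.4% and 34.3%. The median was 0.00 in both. SKAP2, a gene beside the HOXA cluster, read 9.71 with mutant JMJD3, 8.23 with wild-type JMJD3 and 9.15 in control. TAX1BP1, beyond HOXA13, read 11.30, 10.33 and 11.31, and LNPK, beyond HOXD13, 8.21, 7.30 and 8.22. All 3 were lowest with wild-type JMJD3, by 1.89-fold to 1.97-fold against control, where 3 of the 13 were at least 1.5-fold lower, beside 9.08% of all measured genes. Without shared probe sets TAX1BP1 was 0.82 above control with mutant JMJD3, where its brightest probe set gave -0.01, and 1.91 above wild-type JMJD3. SNX11, near HOXB, read 8.34, 9.09 and 8.40.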

How the data were processed

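Biotin-labelled RNA of 3 stable PANC-1 lines was read on Affymetrix arrays, 1 for each line. The deposited values are on a log2 scale, as their range shows, written to 2 decimals. Per the submitters' processing notes the authors used MAS5, the Affymetrix signal algorithm. The sources used here give neither its settings nor any normalization between arrays. The sorted columns differ by at most 0.14. Gene symbols came from the annotation of the platform. Of 54613 probe sets 41091 had 1 gene symbol, 1801 several and 11721 none listed. The brightest probe set stood for each of 19775 genes.

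Signals were floored at log2 5.48, the pooled median, and a gene counted as measured where either array of the comparison was over it. Fold changes are 2 raised to the difference of floored log2 values. Counts at 2-fold and 1.5-fold are set beside those over all measured genes. Groups of 1 array allow no test. The HOX members, the gene lists of cofactors, Polycomb, MLL, retinoic acid, inducer, neighbouring, non-coding, other homeobox and cell type genes, and the comparisons were chosen with earlier results of these data known. Named genes are all HOX members and up to 4 of each other list with the largest difference in any comparison, and KDM6B. The cell type markers, HAGLR and HOXB-AS3 were named outside this rule. The 7 alternatives tried were scaling to one median, quantile normalization, lower and higher floors, an offset, the median over probe sets and no shared probe sets (_s_at or _x_at, whose probes can read related genes). The calculation was tested on simulated data with little noise and changes over 2-fold in genes far above the floor. That test does not bear on smaller differences or on signals near the floor. Promoter sequences and gene order come from RefSeq tables (GRCh38.p14), and the 250 bases before each start were used. The software was pandas 2.3.3 with numpy 2.4.6 on Python 3.11.15, and matplotlib 3.10.9 for plots.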

Additional observations from a re-analysis of the deposited data

How the results depend on the processing

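No paired analysis was possible because each line has 1 array, and no replicate could be left out. The 7 alternatives bore on the HOX results as follows. For wild-type JMJD3 against control the median HOX difference was 0.36 with scaling, 0.368 with quantile normalization, 0.30 with the 40th percentile floor, 0.267 with the offset and 0.27 with the median over probe sets, and the count at 2-fold was 1 with scaling. The count at 1.5-fold, 2 as reported, was 4 with quantile normalization, 1 with the 60th percentile floor, the offset or the median over probe sets, and 0 without shared probe sets. Over all genes the share at 1.5-fold was 7.81% with quantile normalization and 4.65% to 7.63% with the others named. For mutant JMJD3 against control the median was 0.235 with scaling, 0.17 with quantile normalization or the median over probe sets, 0.14 and 0.24 with the 40th and 60th percentile floors, 0.183 with the offset and 0.125 without shared probe sets. The 2 genes at 2-fold were 0 with the 60th percentile floor, the offset, the median over probe sets or no shared probe sets. The 6 at 1.5-fold were 2 with the median over probe sets (7.75% of all genes) and 3 without shared probe sets (11.1%). Without shared probe sets 10 of 14 measured genes were above control, beside 47.5% of all genes. For mutant against wild-type JMJD3 the median was -0.01 with scaling, -0.078 with quantile normalization, -0.073 with the median over probe sets and -0.005 without shared probe sets. There 5 of 14 genes were higher without shared probe sets, beside 44.0% of all genes. The 1 gene at 2-fold was 0 with quantile normalization, the 60th percentile floor, the offset, the median over probe sets or no shared probe sets. The 1 gene at least 1.5-fold higher was 0 with the last 2 of these, and the 1 gene at least 1.5-fold lower was 2 with scaling or quantile normalization and 0 with the offset or the median over probe sets. Fewer genes are measured without shared probe sets (14 of 24 HOX genes) and with the median over probe sets (17 or 18), and for the other changes the cause was not tested. Of the HOX genes that differed from control, HOXC6 alone changed sign under any alternative, for mutant JMJD3 with quantile normalization. Between the JMJD3 lines HOXB5 did so with quantile normalization and HOXB9 with the median over probe sets. Over all genes, the 2-fold counts with an offset were 202 higher and 41 lower for mutant JMJD3 against control (379 and 68 as reported), 70 and 71 for wild-type JMJD3 against control (121 and 166), and 479 and 208 for mutant against wild-type JMJD3 (795 and 335). With the median over probe sets 241 were higher for the mutant and 71 for wild-type JMJD3 against control, and 501 for mutant against wild-type JMJD3, and without shared probe sets the count for wild-type JMJD3 against control was 79 higher. Quantile normalization put 65.4% of all genes above control with wild-type JMJD3. Signals close to the floor limit HOXB6, HOXB8, HOXD4, HOTAIR, HOXA11-AS and KRT19.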

Other observations

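Homeobox genes outside the clusters, 21 ParaHox and dispersed genes of the same ANTP class, had 9 members over the floor. The list had medians of 0.13 for mutant JMJD3 and 0.05 for wild-type JMJD3 against control. Higher than control were 5 of 9 in each comparison, beside 45.9% of all genes with mutant JMJD3 and 54.4% with wild-type JMJD3. MSX1 was the 1 member of the list at 2-fold. Of all genes 2.98% were that much higher with mutant JMJD3 and 0.953% with wild-type JMJD3. MSX1, a target of BMP signalling, read 9.01 with mutant JMJD3, 8.46 with wild-type JMJD3 and 7.18 in control, which is 3.56-fold and 2.43-fold over control. That rests on a shared probe set, as its log2 differences were 0.00 without shared probe sets. HHEX, a liver and pancreas regulator, read 7.64, 7.29 and 7.04 in mutant JMJD3, wild-type JMJD3 and control, MEOX1 6.17, 6.51 and 6.67, and MSX2 6.94, 7.36 and 7.10. With the median over its probe sets MSX2 was 0.16 above control with mutant JMJD3, where its brightest probe set gave -0.16. HHEX and MSX1 shared the order mutant, wild-type, control, and MEOX1 had the reverse.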
